A study of Drosophila melanogaster with 5 samples.

Results

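The Ly6 family genes examined here are atilla, bou, cold, crok, crim, qvr, rtv and twit, 8 of the 17807 genes in the count table, chosen by name because atilla is a widely used marker of lamellocytes and the other members carry the same kind of domain. All 8 names matched a gene. RNA-seq had been run on pelleted hemolymph, the circulating fluid of the larva that holds its hemocytes (blood cells). The larvae were Drosophila melanogaster at 96 to 102 h after egg laying. The control was Cg-Gal4>CS, in which the Cg-Gal4 driver was crossed to wild-type Canton-S, with 2 libraries. The compared genotype was Cg-Gal4>UAS-abd-A, in which the same driver expresses the Hox gene abd-A, with 3 libraries. Both genotypes carried Cg-Gal4, which is active in fat body as well as in hemocytes and the lymph gland, and each library was a pool of 20 larvae. With pooled hemolymph, a change in the number of cells of a type and a change of RNA per cell cannot be told apart.

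Ly6 proteins are small extracellular proteins whose finger-like loops are held together by disulfide bridges, and most members of the fly family are tethered to the outer face of the membrane by a glycosylphosphatidylinositol (GPI) anchor. Several are needed for septate junctions, the seals between epithelial cells, and others act on ion channels of neurons or on the chitin of the cuticle. atilla encodes the surface antigen L1 of lamellocytes, the large flat hemocytes that wrap parasitoid eggs and melanizing tissue and that are rare in healthy larvae. The comparison asked whether atilla stood alone in its family when abd-A was expressed.

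Total counts on genes were between 1252969 and 2567624 in the control libraries and between 3848911 and 4959111 in the abd-A libraries. A value of 3 counts, taken as the floor of detection, was 2.06 and 1.16 CPM (counts scaled to library size with TMM factors) in the controls and 0.638 to 0.817 CPM in the abd-A libraries. abd-A itself had 0 and 21 counts in the controls against 620, 474 and 638 with abd-A, where transgene and endogenous gene were not separated. Of the 8 lamellocyte markers other than atilla, 8 were called higher by the rule given below, beside 11.0% of all genes tested. Their summed level was 1243 to 1685 CPM in the controls and 18489 to 21555 CPM with abd-A. The summed level of 9 plasmatocyte markers was 34917 to 38515 CPM against 11267 to 13627 CPM, and that of 5 crystal cell markers was 9013 to 10829 CPM against 567 to 867 CPM. Hml, one of the plasmatocyte markers, was at 13748 and 16877 CPM in the controls and at 3997 to 4912 CPM with abd-A. Markers of all hemocytes differed among themselves. He was at 514 and 382 CPM in the controls against 1956 to 2249 CPM with abd-A, while the groups overlapped for srp and ush. Summed levels of markers of other tissues were also higher in the control libraries. Fat body markers summed to 2771 and 22776 CPM in the controls against 507 to 1653 CPM, muscle markers to 949 to 2244 CPM against 279 to 381 CPM, and neuron markers to 240 to 420 CPM against 74.0 to 126 CPM. Most of the fat body sum with abd-A was apolpp, at 357 and 2450 CPM in the controls against 483 to 1518 CPM, where the groups overlapped. The other fat body markers were below both controls in all abd-A libraries. Whether these levels reflect tissue carried into the samples or a change of expression was not tested. How far they bear on the Ly6 genes was not tested either.

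atilla was not alone. Among the 7 members with enough counts to be tested (at least 10 in all), atilla and crok rose, qvr fell, and cold, crim, rtv and twit were not called. A call required a change of at least 2-fold and an adjusted p under 0.05, from the quasi-likelihood test of edgeR with p-values adjusted by Benjamini-Hochberg over all genes tested. Of the 11624 genes tested, 11.0% were called higher and 12.7% lower. The abd-A libraries lay above both controls for 2 members and below both for 2, where 27.3% and 29.3% of all genes tested did so.

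atilla (FBgn0032422), the lamellocyte antigen, had 14 and 49 counts in the controls against 4863, 3755 and 5568 with abd-A. These were 9.62 and 19.0 CPM against 1087, 1023 and 1185 CPM, so that every abd-A library was above both controls and the abd-A libraries lay close together. The log2 fold change was 6.21 (SE 0.35, n = 2 and 3, adjusted p = 1.13e-05 in edgeR's quasi-likelihood test), or 73.8-fold. It ranked 77 of the 11624 genes by log2 fold change and 122 by its mean CPM in the abd-A libraries.

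crok (crooked, FBgn0032421), needed for septate junctions in embryonic epithelia, had 13 and 34 counts in the controls against 365, 301 and 345 with abd-A. These were 8.93 and 13.2 CPM against 81.6, 82.0 and 73.4 CPM. The abd-A libraries all lay above the controls, and the log2 fold change was 2.80 (SE 0.33, n = 2 and 3, adjusted p = 0.000443 in edgeR's quasi-likelihood test). crok ranked 507 among all genes tested. Without control replicate 2 the log2 fold change of atilla was 6.81. The calls of atilla and crok were kept with each of the 5 libraries left out and under all other settings tried.

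qvr (quiver or sleepless, FBgn0260499), which promotes sleep by acting on the Shaker potassium channel and on nicotinic acetylcholine receptors, had 31 and 80 counts in the controls against 10, 19 and 23 with abd-A. These were 21.3 and 31.0 CPM against 2.24, 5.18 and 4.89 CPM. All abd-A libraries were below both controls, with a log2 fold change of -2.67 (SE 0.63, n = 2 and 3, adjusted p = 0.0135 in edgeR's quasi-likelihood test). The call was lost without abd-A replicate 1 (log2 fold change -2.38, adjusted p = 0.0632).

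**Figure D1:**
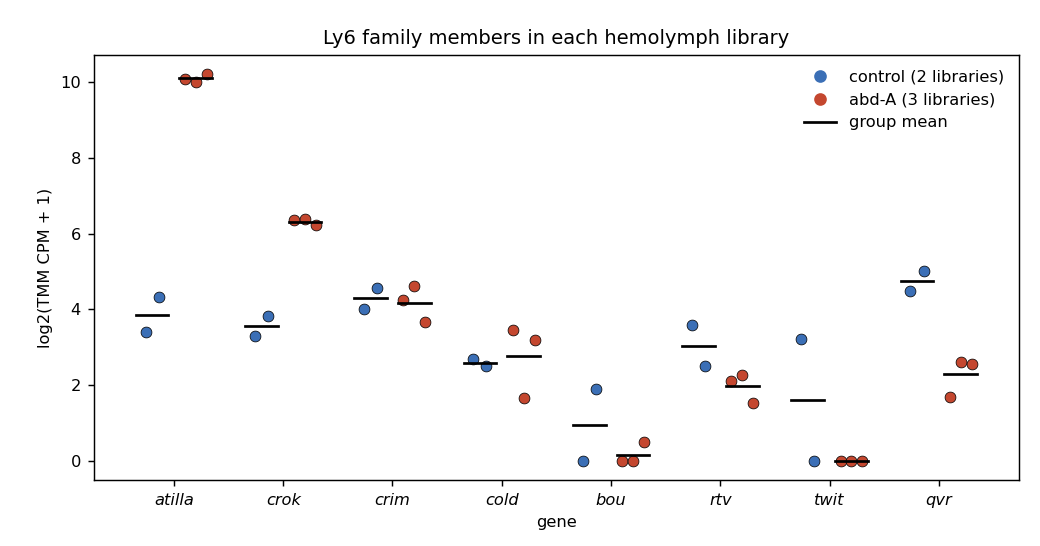
Level of the 8 Ly6 members in each library, as log2 of TMM-normalized CPM plus 1 on the vertical axis. Points are libraries, blue for the 2 controls and red for the 3 abd-A libraries, and bars are means of the plotted values. The abd-A points of atilla (1023 to 1185 CPM) and crok (73.4 to 82.0 CPM) lie above both controls, those of qvr (2.24 to 5.18 CPM) and rtv (1.92 to 3.81 CPM) below both.

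The other members with a role in septate junctions were crim, cold and bou. crim (crimpled, FBgn0036198) had 22 and 59 counts in the controls against 80, 86 and 55 with abd-A, or 15.1 and 22.9 CPM against 17.9, 23.4 and 11.7 CPM. The groups overlapped, and the log2 fold change was -0.12 (SE 0.51, adjusted p = 0.884 in edgeR's quasi-likelihood test). Its sign turned without control replicate 2 (0.20) and without abd-A replicate 3 (0.10). cold (coiled, FBgn0031268) had 8 and 12 counts against 45, 8 and 38 counts. Its abd-A libraries lay on both sides of the controls, with 10.1, 2.18 and 8.09 CPM against 5.50 and 4.65 CPM and a log2 fold change of 0.42 (SE 0.99, adjusted p = 0.779 in edgeR's quasi-likelihood test). bou (boudin, FBgn0261284) had 0 and 7 counts in the controls against 0, 0 and 2 with abd-A, which was too few to test. crok was thus the single member of the septate junction group that was called, and bou had at most 7 counts in any library.

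rtv (retroactive, FBgn0261277), which orders the chitin filaments of the cuticle, had 16 and 12 counts in the controls against 15, 14 and 9 with abd-A. At 11.0 and 4.65 CPM against 3.35, 3.81 and 1.92 CPM, the abd-A libraries were below both controls, but the log2 fold change of -1.35 (SE 1.06, adjusted p = 0.364 in edgeR's quasi-likelihood test) was not called. twit (target of wit, FBgn0032895), found in motor neurons as a gene that depends on the receptor Wit, had 12 and 0 counts in the controls and 0 in all abd-A libraries. Its counts came from control replicate 1 alone, and twit was not called (adjusted p = 0.116, edgeR's quasi-likelihood test). Without control replicate 2 twit was called lower, with an adjusted p of 0.0264.

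Compared per kb of exon, the members had a different order in the 2 genotypes. In the controls crim was highest with a mean of 25.3 CPM per kb, followed by atilla with 17.2 and crok with 10.7 CPM per kb, and the ranges of crim and atilla overlapped, as did those of atilla and crok. rtv, qvr, cold, twit and bou followed with 6.15 to 1.93 CPM per kb, each overlapping the next. The range of crok did not overlap that of rtv, but its lowest value (8.645 CPM per kb) was barely above the highest of rtv (8.634). In the abd-A libraries atilla was first with 1317 CPM per kb, 17.2 times the level of crok (76.5 CPM per kb), and crim was at 23.5 CPM per kb. These levels did not overlap, nor did crim overlap cold (5.85 CPM per kb) or rtv (2.38 CPM per kb) overlap qvr (0.804 CPM per kb). The neighbours whose ranges overlapped were cold and rtv, qvr and bou, and bou and twit.

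atilla rose by more than its neighbour crok. Within a library, the ratio of atilla counts to crok counts does not depend on the scaling between libraries. It was 1.08 and 1.44 in the controls and 13.3, 12.5 and 16.1 in the abd-A libraries. The log2 ratio, with 0.5 added to each count, was higher by 3.48 in the abd-A libraries, with an SD of 0.30 over 2 controls and 0.19 over 3 abd-A libraries. The 2 groups did not overlap, for which the two-sided exact permutation test over samples gave p = 0.1, the smallest p that 2 against 3 libraries allow. Ratios of atilla to each of the other 6 members also did not overlap between genotypes. The 7 comparisons all had an exact permutation p of 0.1 and a Benjamini-Hochberg adjusted p of 0.1. They all share the atilla counts, so they are not separate pieces of evidence. Where bou or twit had 0 counts, the log2 ratio rests on the 0.5 added to each count.

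A further 18 genes were taken as other Ly6 family genes of Drosophila melanogaster. The list was written by hand from knowledge of the family and its membership was not checked against protein sequence. Of the 18, 12 were tested. CG15347 and bero rose, CG14401, CG31675, CG7778, CG8501 and CG13102 fell, 5 were not called, and 6 had under 10 counts. Over all genes tested, 11.0% were called higher and 12.7% lower. The median log2 fold change of the 12 was -1.29, beside -0.17 over all genes tested. Among the 7 members tested the median was -0.12.

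CG15347 (FBgn0030040), which lies on the X chromosome, had 38 and 53 counts in the controls against 8075, 5844 and 8731 with abd-A. These were 26.1 and 20.6 CPM against 1805, 1592 and 1858 CPM, and all abd-A libraries were far above both controls. The log2 fold change was 6.24 (SE 0.29, n = 2 and 3, adjusted p = 9.52e-06 in edgeR's quasi-likelihood test), which put it at rank 73, beside atilla at 77. In the ranking by abd-A level it was at 62. The ratio of atilla counts to CG15347 counts was 0.368 and 0.925 in the controls and 0.602, 0.643 and 0.638 in the abd-A libraries. The log2 ratio was 0.09 higher in the abd-A libraries, with an SD of 0.92 over the controls, and the difference was within the spread of the controls (two-sided exact permutation p = 0.8, smallest possible p 0.1). This ratio was not among those planned, and CG15347 is also among the genes picked below for likeness to atilla. With that spread over the controls, the test cannot show that the 2 genes changed alike.

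bero (belly roll, FBgn0032897), which tunes escape responses of larvae through peptidergic neurons, had 8 and 10 counts in the controls against 135, 75 and 66 with abd-A. At 5.50 and 3.88 CPM against 30.2, 20.4 and 14.0 CPM the groups did not overlap, and the log2 fold change was 2.22 (SE 0.64, adjusted p = 0.0318 in edgeR's quasi-likelihood test). Its call was lost without abd-A replicate 1, 2 or 3, with adjusted p of 0.186, 0.102 and 0.0664. With limma-voom the adjusted p was 0.0959.

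Of the genes that fell, CG14401 (FBgn0032900) had 181 and 365 counts in the controls against 126, 128 and 102 with abd-A, or 124 and 142 CPM against 28.2, 34.9 and 21.7 CPM. Its log2 fold change was -2.24 (SE 0.28, adjusted p = 0.000584 in edgeR's quasi-likelihood test), although 462 of its 1399 exon bases are also exons of sky or CG43739 on the opposite strand. CG8501 (FBgn0033724) had 200 and 524 counts against 276, 254 and 344 counts, and at 137 and 203 CPM against 61.7, 69.2 and 73.2 CPM the groups did not overlap (log2 fold change -1.33, SE 0.25, adjusted p = 0.00451 in edgeR's quasi-likelihood test). Both were kept with any library left out.

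CG31675 (FBgn0051675) had 36 and 52 counts in the controls against 0, 0 and 6 with abd-A, with a log2 fold change of -5.53 (SE 1.22, adjusted p = 0.0102 in edgeR's quasi-likelihood test). Without abd-A replicate 3, which held those 6 counts, it was -9.10. CG7778 (FBgn0032025) had 12 and 39 counts against 5, 3 and 8 counts (log2 fold change -3.23, SE 1.02, adjusted p = 0.0444), and its call was lost without control replicate 2 (adjusted p = 0.158) and without abd-A replicate 1, 2 or 3 (0.138, 0.128 and 0.109). Both genes were low in all libraries, at most 24.7 CPM. CG13102 (FBgn0032088) rests on 1 library. It had 438 and 9 counts in the controls against 10, 30 and 6 with abd-A, so that the groups overlapped, and its log2 fold change of -5.31 (adjusted p = 0.0162 in edgeR's quasi-likelihood test) became 0.14 without control replicate 1. Its call was also lost without abd-A replicate 1, 2 or 3 (adjusted p = 0.0874, 0.0521 and 0.0665). Of its 1835 exon bases, 1184 are shared with Rcd-1r on the opposite strand.

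The genes not called were CG9338, CG6583, CG7781, CG6329 and CG15170, with log2 fold changes from -1.89 (CG6329) to 1.12 (CG6583) and adjusted p from 0.0621 to 0.532. The untested genes CG31676, CG14273, witty, CG3955, CG4363 and CG4377 had at most 5 counts in any library. The low counts of these 6 genes leave a difference undetectable at this depth. The 3 Ly6 genes called higher other than atilla therefore ranged from a change near that of atilla (CG15347) to smaller ones (crok and bero).

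**Figure D2:**
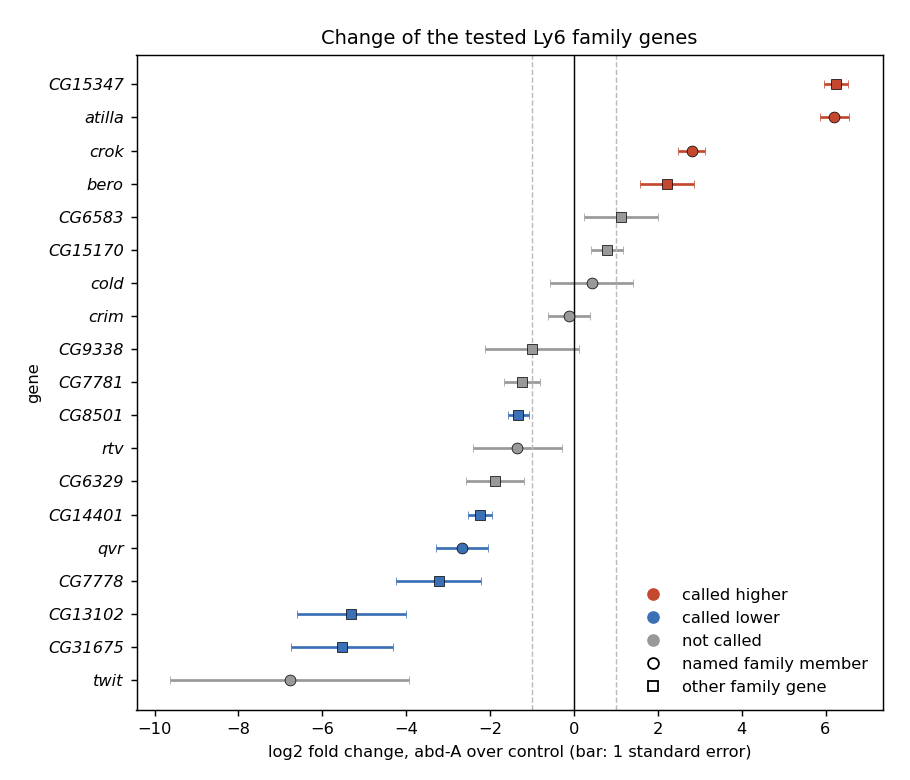
Log2 fold change of the abd-A over the control libraries for the 19 Ly6 family genes tested. Bars are 1 standard error, derived from the quasi-likelihood F statistic. Circles are the named members, squares the other family genes, colours give the call and dashed lines mark a 2-fold change. atilla (6.21) and CG15347 (6.24) lie apart from crok (2.80) and bero (2.22), and the genes called lower range from -1.33 (CG8501) to -5.53 (CG31675). The value of twit rests on the counts of 1 control library.

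Where the family genes lie in the genome was read from an Ensembl annotation in dm6 coordinates. atilla (chr2L:12175451-12177886, reverse strand) has 3 exons with 834 bases, and no exon base is shared with a gene on the opposite strand. The gene bru1 (12175004 to 12313438, forward strand), encoding an RNA-binding protein, spans atilla whole, which lies in an intron of bru1 on the other strand. crok (12172981 to 12174091, forward strand) ends 1359 bases before atilla, and CG6583 (12171204 to 12172586, reverse strand) lies 394 bases before crok. The 3 genes make a group of family genes 6.68 kb long.

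In this group atilla and crok rose, while CG6583 was not called. CG6583 had 14 and 4 counts in the controls against 47, 38 and 66 with abd-A, or 9.62 and 1.55 CPM against 10.5, 10.4 and 14.0 CPM. All abd-A libraries were above both controls, some of them only just, and the log2 fold change was 1.12 (SE 0.89, adjusted p = 0.371 in edgeR's quasi-likelihood test). Without control replicate 1 it was 2.87 and CG6583 was called (adjusted p = 0.0248).

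Within 20 kb of atilla lie 8 genes, all of them tested. crok and CG31760 rose, none fell and 6 were not called, beside 11.0% called higher and 12.7% lower over all genes tested. CG31760 had 19 and 36 counts in the controls against 159, 135 and 137 with abd-A (log2 fold change 1.32, SE 0.40, adjusted p = 0.0366 in edgeR's quasi-likelihood test). Its call was lost without abd-A replicate 1, 2 or 3 (adjusted p = 0.147, 0.134 and 0.101) and with DESeq2 size factors (0.0566), upper-quartile scaling (0.0616), library totals (0.0641) and limma-voom (0.0761). The short non-coding gene lncRNA:CR43356, between crok and atilla and on the strand of atilla, had 0 and 7 counts in the controls against 47, 34 and 41 with abd-A (log2 fold change 2.63, SE 1.19, adjusted p = 0.130). It was called without control replicate 2 (adjusted p = 0.00712). bru1, which spans atilla, had 62 and 75 counts against 243, 144 and 210 counts, with overlapping CPM and a log2 fold change of 0.37 (SE 0.33, adjusted p = 0.424 in edgeR's quasi-likelihood test). The remaining CG17217, ZnT33D and CG31861 were not called (adjusted p = 0.182, 0.374 and 0.328). The abd-A libraries lay above both controls for 5 of the 8 neighbours, beside 27.3% of all genes tested.

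Family genes make another 2 groups on 2L. The group of twit (20840750 to 20871565, 30.8 kb) holds CG31676, twit, bero, CG9338, CG31675 and CG14401, all on the forward strand. There bero rose, CG31675 and CG14401 fell, twit and CG9338 were not called, and CG31676 was not tested. The group of CG7781 (8321280 to 8351112, 29.8 kb) holds CG7781, witty, CG14273 and CG7778, of which CG7778 fell, CG7781 was not called (42 and 108 counts against 73, 68 and 48 counts, log2 fold change -1.24, adjusted p = 0.0621 in edgeR's quasi-likelihood test), and 2 were not tested. A pair on 2R, CG4363 and CG4377, had at most 2 counts in any library. The twit group thus held calls in both directions, though not in genes next to each other, while the tested genes were all above 0 in the atilla group and both below 0 in the CG7781 group.

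**Figure D3:**
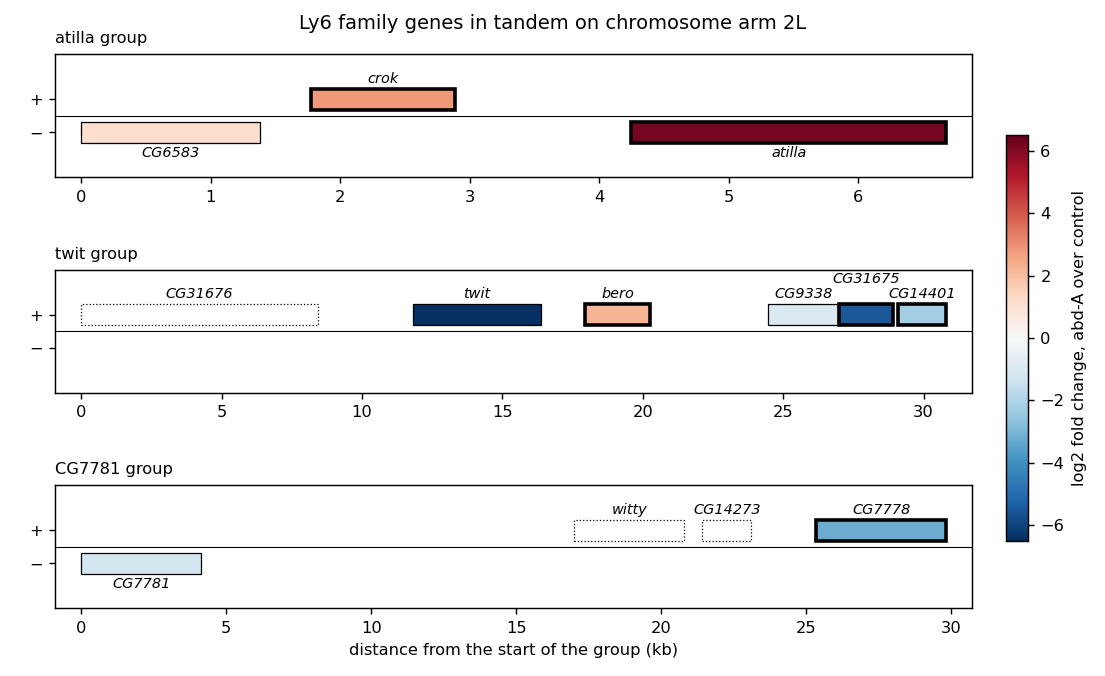
Position, strand and log2 fold change of the Ly6 family genes in the 3 groups on chromosome arm 2L, in kb from the start of each group. Boxes are gene spans, colour gives the log2 fold change of abd-A over control, thick outlines mark called genes and dotted boxes untested ones. atilla (6.21) and crok (2.80) are called higher in a group of 6.68 kb, while the twit group holds bero (2.22) called higher and CG31675 (-5.53) and CG14401 (-2.24) called lower. The colour of twit rests on 1 control library and it was not called.

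Genes chosen for roles related to those of the members were examined in 5 lists. The septate junction list has 20 genes, all tested, of which 5 rose and none fell, beside 11.0% called higher and 12.7% lower over all genes tested. The median log2 fold change of the list was 0.73, beside -0.17 over all genes. Gli, encoding Gliotactin of the corners where cells meet, had 0 and 31 counts in the controls against 414, 303 and 429 with abd-A (log2 fold change 3.69, SE 0.74, adjusted p = 0.00619 in edgeR's quasi-likelihood test). Without control replicate 1 the value of Gli was 2.87 and without control replicate 2, where the remaining control has no count, it was 11.31. kune, a claudin, had 0 and 24 counts against 234, 157 and 132 counts (2.96, SE 0.84, adjusted p = 0.0295), but its call was lost without abd-A replicate 1, 2 or 3 (0.132, 0.113 and 0.0616) and its log2 fold change was 2.13 and 10.19 without control replicates 1 and 2. dlg1, a scaffold protein of cell polarity, had 224 and 395 counts against 2034, 1230 and 2109 counts, with 154 and 153 CPM in the controls and at least 335 CPM with abd-A (1.43, SE 0.23, adjusted p = 0.00219 in edgeR's quasi-likelihood test). The other called genes were cora and udt, with log2 fold changes of 1.04 and 1.20. The abd-A libraries lay above both controls in 13 of the 20 genes, beside 27.3% of all genes tested. Without abd-A replicates 1, 2 and 3 the count of called genes was 2, 3 and 2. In those fits 693 of 11403, 832 of 11396 and 769 of 11409 genes tested were called higher. With all libraries it was 1274 of 11624.

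Synthesis and attachment of the GPI anchor is done in the endoplasmic reticulum by a series of enzymes whose genes are named PIG and PGAP. Of 24 genes matched, 21 were tested, 4 rose and none fell, beside 11.0% called higher and 12.7% lower over all genes tested. The median log2 fold change of the list was 0.36, beside -0.17 over all genes. PIG-L, a deacetylase of an early step, had 6 and 26 counts in the controls against 198, 114 and 185 with abd-A (2.36, SE 0.50, adjusted p = 0.00795 in edgeR's quasi-likelihood test). PIG-X, known in mammals as a partner of a mannosyltransferase, had 2 and 5 counts against 22, 84 and 80 counts (3.11, SE 0.97, adjusted p = 0.0419). PIG-O, which adds ethanolamine phosphate, had 22 and 42 counts against 198, 193 and 190 counts (1.54, SE 0.35, adjusted p = 0.0120). All abd-A libraries were above both controls for these genes and for PIG-V, a mannosyltransferase gene (1.51). The call of PIG-L was lost without abd-A replicate 1 (adjusted p = 0.0589; log2 fold change 3.18 without control replicate 2), that of PIG-O without replicate 1 or 2 (0.0631 and 0.0691), and that of PIG-X without replicate 2 or 3 (0.186 and 0.149) and with DESeq2 size factors (0.0515), upper-quartile scaling (0.0537), library totals (0.0551) and limma-voom (0.169). Without any 1 of the abd-A libraries, 2 genes of the list were called higher, beside 693 to 832 over all genes tested. GAA1, a subunit of the transamidase that attaches the anchor, was at 34.4 and 34.9 CPM against 34.0, 25.1 and 44.1 CPM, and the other subunits PIG-K, PIG-S, PIG-T and PIG-U were not called.

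The chitin list has 10 genes that make or order chitin, the sugar polymer that rtv organizes. None rose and 4 fell, beside 11.0% called higher and 12.7% lower over all genes tested, and the median log2 fold change was -3.11. serp, a chitin deacetylase, had 29 and 151 counts in the controls against 10, 7 and 11 with abd-A (-4.17, SE 0.62, adjusted p = 0.00132 in edgeR's quasi-likelihood test). kkv, the chitin synthase of the cuticle, had 26 and 93 counts against 1, 11 and 14 counts (-3.70, SE 0.89, adjusted p = 0.0149), and Cht2, a chitinase, 12 and 75 counts against 17, 8 and 2 counts (-3.13, SE 0.98, adjusted p = 0.0433). exp, needed for chitin deposition in tracheae, was the other gene called (-1.36). Without control replicate 2 serp was at -3.20. The call of kkv was lost without abd-A replicate 2 (adjusted p = 0.0537), and that of Cht2 without control replicate 2 (0.274, log2 fold change -1.96) or abd-A replicate 1, 2 or 3 (0.0787, 0.132 and 0.118). Without abd-A replicates 1, 2 and 3 the list had 2, 1 and 2 genes called lower, beside 744, 868 and 817 over all genes. With all libraries 1481 genes were called lower. Of 7 markers of trachea and epidermis 5 were tested, 3 were called lower, btl was called higher and trh was not called, and their sum was 229 and 472 CPM in the controls against 63.9 to 73.0 CPM. The untested markers were Cpr65Ec, at 0 in all libraries, and Tb, with 0 and 4 counts in the controls and 0 with abd-A. How far RNA of trachea and epidermis enters the values of rtv and of the chitin list was not tested.

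The list for qvr holds genes of Shaker and related potassium channels and of nicotinic acetylcholine receptors. Whether qvr acts on each of them was not checked. Of 12 genes 11 were tested, none rose and 4 fell, beside 11.0% and 12.7% of all genes tested, while all 11 values were below 0 and the median log2 fold change was -3.72. Sh, the Shaker channel, had 58 and 105 counts in the controls against 6, 23 and 17 with abd-A, or 39.8 and 40.7 CPM against 1.34, 6.27 and 3.62 CPM (-3.43, SE 0.62, adjusted p = 0.00398 in edgeR's quasi-likelihood test). Sh kept its call with any library left out, and was named after its values were seen. The receptor subunit gene nAChRalpha1 had 14 and 54 counts against 1, 7 and 0 counts (adjusted p = 0.0369). For nAChRalpha4 there were 50 and 28 counts against 14, 0 and 0 counts (adjusted p = 0.0457). For nAChRalpha7 there were 24 and 15 counts against 3, 2 and 2 counts and all abd-A libraries were at the floor (adjusted p = 0.0307 in edgeR's quasi-likelihood test). These 3 calls rest on few counts. They were lost without control replicate 2 (nAChRalpha1, adjusted p = 0.128) or control replicate 1 (nAChRalpha4 and nAChRalpha7, 0.149 and 0.195). Without abd-A replicate 1, nAChRalpha1 and nAChRalpha7 were lost (0.133 and 0.0938). Without abd-A replicate 2, nAChRalpha4 and nAChRalpha7 were lost (0.128 and 0.0902). Without abd-A replicate 3 all 3 were lost (0.0913, 0.109 and 0.104).

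Of 6 neuronal markers 3 were called lower (elav, nSyb and Syn) and 3 were not called (Syt1, brp and para), all with log2 fold changes below 0. Over all genes tested, 12.7% were called lower. nSyb was at 15.1 and 32.6 CPM in the controls against 0, 0 and 0.213 CPM with abd-A. How far RNA of neurons enters the values of qvr and of the channel list was not tested.

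In the Wit pathway, named here because twit depends on it in neurons, 7 genes were tested, none rose and tkv fell, where 12.7% of all genes tested were called lower. tkv, a type I receptor for BMP ligands, had 45 and 127 counts in the controls against 57, 42 and 62 with abd-A, or 30.9 and 49.3 CPM against 12.7, 11.4 and 13.2 CPM (-1.69, SE 0.40, adjusted p = 0.0144 in edgeR's quasi-likelihood test). Its call was lost without abd-A replicate 1, 2 or 3 (0.0665, 0.0626 and 0.0565). wit itself had 0 and 20 counts against 30, 2 and 13 counts, and its groups overlapped (adjusted p = 0.920). The median of the list was 0.22.

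**Figure D4:**
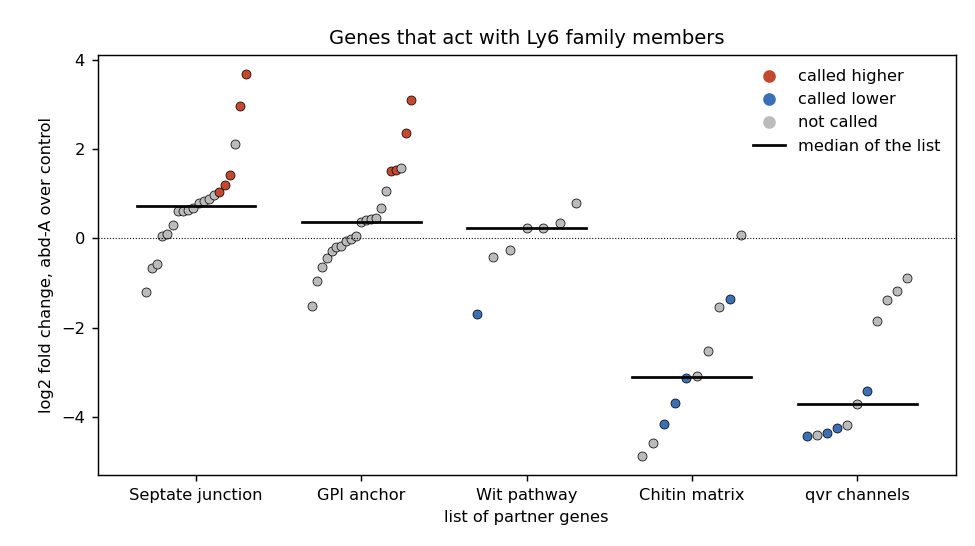
Log2 fold change of abd-A over control, on the vertical axis, for each tested gene of 5 lists chosen for roles related to Ly6 members. Points are genes in order of value, red when called higher, blue when called lower and grey when not called, and bars are list medians. The medians are 0.73 for the septate junction, 0.36 for the GPI anchor, 0.22 for the Wit pathway, -3.11 for chitin and -3.72 for the qvr channel list.

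The genes whose pattern over the 5 libraries was most like that of atilla were picked by the smallest root mean square difference of log2(CPM + 1), each gene centred on its own mean, among genes with at least 100 counts on average in the abd-A libraries. They were CG10232 (0.11), mdu (0.201), CG43175 (0.310), ItgaPS4 (0.316) and CG15347 (0.396). CG10232 had 0 and 3 counts in the controls against 551, 437 and 615 with abd-A, at least 77.1-fold higher against the floor of the controls. mdu had 6 and 30 counts against 3481, 2535 and 3738 counts. CG43175 had 0 and 0 counts against 320, 297 and 350 counts, at least 46.9-fold higher. ItgaPS4, an integrin alpha subunit and one of the lamellocyte markers, had 27 and 185 counts against 13841, 10354 and 15531 counts. These genes were picked for likeness to atilla and by their counts in the abd-A libraries. That all abd-A libraries lay far above both controls therefore follows from the choice. CG15347 is also in the list of Ly6 genes. The points share the same libraries and depths, so the measure describes likeness within these samples only.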

How the data were processed

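RNA of pelleted hemolymph from 2 control and 3 abd-A pools was sequenced with a directional kit. Per the labels and the submitters' processing notes, the authors checked reads with FastQC 0.11.7, mapped them to dm6 with STAR 2.5.2 and counted them on genes with HTSeq 0.11.2. The deposited table gives raw counts, one value for each gene and library, without normalization. The strand setting and annotation release are not given in the sources used here, so reads of overlapping genes on opposite strands may not be separated.

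Genes with at least 10 counts over the 5 libraries were fitted together with edgeR 4.0.16 in R 4.3.3 (TMM, quasi-likelihood F-test, no covariate, Benjamini-Hochberg adjustment over 11624 genes). Gene symbols and positions were taken from the Ensembl annotation (dm6 coordinates), which matched 17710 of 17807 genes. The SE of a log2 fold change is its size divided by the square root of the F statistic, so it adds nothing to the p-value. Medians and count ratios were computed with Python 3.11.15. The fit was tested on simulated data. Nothing beyond the pools says how far replicates are independent, so p-values measure the spread between these libraries. Floors cover counting error only.

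The members, lists and rules were chosen with earlier results of these data known. Named were all members, called Ly6 genes, up to 3 called genes per list and direction with the largest change, genes within 20 kb of atilla and the 5 genes most like it. cora, udt, exp, PIG-V, GAA1, PIG-K, PIG-S, PIG-T, PIG-U, Sh and wit fall outside this rule and were named after their values were seen. The same holds for the other Ly6 genes that were not called or not tested, apart from CG6583, which lies within 20 kb of atilla. Alternatives were other scalings, count filters, DESeq2 1.42.0, limma-voom (limma 3.58.1), the fold threshold dropped, a replicate block and each library left out.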

Additional observations from a re-analysis of the deposited data

How the results depend on the processing

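atilla and crok kept their direction and their call in every alternative run, with log2 fold changes from 5.84 to 6.81 and from 2.57 to 3.12 when 1 library was left out. The number of members called higher was 2 in all fits. Without 1 library in turn, the members called lower numbered 0 to 2, the other Ly6 genes called higher 1 to 3 and lower 3 to 6, the partner genes called higher 4 to 16 and lower 3 to 10, and the genes next to atilla called higher 1 to 3 (none were lower). Over all genes the range was 693 to 2278 higher and 744 to 2094 lower, and the difference of the log2 ratio of atilla to crok was 3.27 to 3.69. With 1 control left, that library was assumed to vary like the abd-A libraries.

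With at least 10 counts in every library, 6350 genes were tested. Of these, 911 genes were called lower, 1 other Ly6 gene higher, and 4 partner genes in each direction. The DESeq2 Wald test called 14 partner genes lower. limma-voom called 1 other Ly6 gene higher. With DESeq2 size factors, upper-quartile scaling, library totals or limma-voom, 1 gene next to atilla was called higher. The cause of these shifts was not tested. The median log2 fold change over all genes was -0.17, and -0.32, -0.35 and -0.36 under those 3 scalings. With 1 library left out, the sign turned for crim (range -0.39 to 0.20, with 0.10 without abd-A replicate 3), for CG13102 (-6.41 to 0.14, the latter without control replicate 1) and for CG31861 (-3.82 to 4.94, the latter without control replicate 1).

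Deviations of same-numbered libraries from their group means had correlations across genes of 0.0175 and -0.00775. The 2 controls deviate from their mean by equal and opposite amounts. This check therefore cannot decide whether the numbers pair the samples. With the replicate block, 831 genes were called lower, 1 other Ly6 gene higher, 4 partner genes in each direction and 1 gene next to atilla higher, crim was at 0.14 and cold at -0.085. Among members no call was lost with the block. Genes with few counts, such as bou, twit and rtv, are limited by depth, which was lowest in the controls.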
